A study of Mus musculus with 6 samples.

Results

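The genes described here serve the endoplasmic reticulum (ER), the compartment in which secreted and membrane proteins are folded, and the stress response that follows when folding falls behind. The list held 32 genes, named for their known roles in ER folding, ER degradation and the stress response. Of these, 29 had a probe on the bead array, out of 15967 genes with a probe, and each gene was read by its brightest probe. Testing required a detection p below 0.05, that is a signal above background, on every array of the KO or of the WT, and 22 of the 29 genes met this. Dnajb9, Dnajb11 and Eif2ak3 had no probe named for them. Calr, Canx, Dnajc3, Manf, Derl1, Atf6 and Ern1 had probes that were not tested.

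The arrays read RNA from cultured mouse megakaryocyte progenitors, precursors of the large marrow cells that shed platelets. In the knockout (KO, SRF-/-, 3 arrays) the gene Srf was deleted by Cre recombinase under the Pf4 promoter, which is active mainly in the megakaryocyte lineage; the wild-type (WT, SRF+/+) group had 3 arrays. The product of Srf, serum response factor, drives genes of the actin cytoskeleton. All mice were C57BL/6, with ages not given in the labels, and both groups went through the same steps. Marrow was depleted of mature lineages and kept in stem cell factor with thrombopoietin until the next morning. Cells positive for CD41 and c-kit were then sorted and grown in thrombopoietin for 3 more days. The design text names Pf4-Cre/SRF mice for both groups, and whether each WT animal carried Cre or a floxed Srf allele is not given. Nothing in the labels says which replicates came from separate animals, so the p-values reflect only how far these samples differ, in part perhaps for technical reasons.

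Inside the ER, Hspa5 (BiP) and Hsp90b1 are the chief chaperones, disulfide isomerases such as Pdia3 and P4hb form and rearrange disulfide bonds, and calnexin and calreticulin retain unfinished glycoproteins. Proteins that fail to fold are drawn back to the cytosol and degraded. Overload is sensed by Atf6, Ern1 (IRE1) and Eif2ak3 (PERK): Atf6 and the Xbp1 made from the transcript that IRE1 splices raise the folding and degradation genes, while PERK slows translation and raises Atf4, which acts on Ddit3 (CHOP), Trib3, Asns and other genes. Megakaryocytes make large amounts of membrane and granule protein, which pass through this compartment.

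Much of this control runs through short promoter elements, shown here because several of the folding genes hold the same element. The ER stress response element (ERSE), bound by ATF6 and XBP1 together with the factor NF-Y, was searched as CCAAT and CCACG with any 9 bases between them, on both strands in the 250 bases before each annotated start. RefSeq promoters (GRCm38.p6) matched 28 of the 32 genes. Hyou1, Manf, Derl1 and Atf6 had no matching promoter and were not searched. Among the 28, 8 genes (28.6%) held the element, against 35 of all 27025 genes with a promoter (0.13%). The genes were listed for known roles in ER folding and stress, so shares of this kind are descriptions and not tests. The 8 were Hspa5, Hsp90b1, Pdia6, Calr, Canx, Creld2, Dnajc3 and Syvn1, and Hsp90b1 held it in 2 places. Below, each copy is turned to read from CCAAT to CCACG with 5 bases on either side, and the capitals mark the fixed letters of the element.
Hspa5, chr2:34772020-34772048, + strand: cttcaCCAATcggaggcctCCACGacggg
Hsp90b1 far copy, chr10:86705633-86705661, - strand: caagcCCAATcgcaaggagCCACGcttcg
Hsp90b1 near copy, chr10:86705528-86705556, + strand: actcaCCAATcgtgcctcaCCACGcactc
Pdia6, chr12:17266486-17266514, + strand: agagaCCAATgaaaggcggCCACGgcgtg
Calr, chr8:84847070-84847098, + strand: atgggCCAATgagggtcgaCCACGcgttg
Canx, chr11:50325795-50325823, - strand: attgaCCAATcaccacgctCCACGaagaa
Creld2, chr15:88819515-88819543, - strand: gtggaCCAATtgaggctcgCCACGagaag
Dnajc3, chr14:118937822-118937850, + strand: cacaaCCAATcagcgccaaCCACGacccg
Syvn1, chr19:6046527-6046555, + strand: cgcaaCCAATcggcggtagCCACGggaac

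The positions differed from gene to gene. The Hspa5 copy lay 65 to 47 bases before the annotated start and the Syvn1 copy 44 to 26 bases before it. The Hsp90b1 copies lay 212 to 194 and 107 to 89 bases before its start, in opposite orientations, and the Calr copy 162 to 144 bases before its start. The windows of 250 bases are given whole for Hspa5 and Hsp90b1, in the direction of the gene, with the same letters in capitals. The near copy of Hsp90b1 there reads as its reverse complement.
Hspa5, chr2:34771840-34772089, + strand: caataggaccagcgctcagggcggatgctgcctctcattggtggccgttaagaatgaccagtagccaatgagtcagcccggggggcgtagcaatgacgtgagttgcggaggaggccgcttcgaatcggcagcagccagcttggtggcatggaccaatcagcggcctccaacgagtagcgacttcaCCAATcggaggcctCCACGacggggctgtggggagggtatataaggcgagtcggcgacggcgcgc
Hsp90b1, chr10:86705445-86705694, - strand: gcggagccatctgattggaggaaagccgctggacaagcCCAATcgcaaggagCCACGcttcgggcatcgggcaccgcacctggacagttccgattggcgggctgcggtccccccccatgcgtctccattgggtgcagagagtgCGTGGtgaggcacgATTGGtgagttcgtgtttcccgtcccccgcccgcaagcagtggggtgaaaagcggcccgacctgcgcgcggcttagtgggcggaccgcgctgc

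Herpud1, a membrane protein of ER degradation, held a relative of this element, ERSE-II (ATTGG and CCACG with any 1 base between them), which was found in 10 of the 27025 genes (0.0370%). The CARE, a response element for ATF4 and C/EBP factors searched as TGATGNAA, was found in Herpud1 and in Asns and Chac1, which ATF4 activates. That was 3 of 28 genes (10.7%), against 1056 of 27025 genes (3.91%). An XBP1-binding core, TGACGTGG, matched none of the 28 windows and 163 of the 27025 genes (0.603%). A match describes letters in this window and is not evidence of binding. The Herpud1 elements and the Asns and Chac1 elements are set out with their fixed letters in capitals.
Herpud1 ERSE-II, chr8:94386372-94386392, + strand: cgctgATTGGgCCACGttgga
Herpud1 CARE, chr8:94386312-94386329, - strand: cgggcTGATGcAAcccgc
Chac1 CARE, chr2:119351044-119351061, - strand: aggagTGATGcAAcggca
Asns CARE, chr6:7693220-7693237, - strand: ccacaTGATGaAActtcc

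Srf lay at log2 7.35, 7.56 and 7.20 on the KO arrays and at 12.31, 11.89 and 11.98 on the WT arrays, a log2 difference of -4.69 (SE 0.17; adjusted p = 5.4e-05, limma). The arrays detected 9801 to 10364 probes each, and all 10 of the megakaryocyte markers on the array were detected on every array. Itga2b, which encodes the sorted antigen CD41, lay at 13.01 on each KO array and at 12.63, 12.58 and 12.43 on the WT arrays. Gp1bb and Pf4 also had every KO array above every WT array. Ppbp had the KO below, at 14.51, 14.34 and 14.69 against 15.47, 15.47 and 15.06 in the WT. The other megakaryocyte markers overlapped, and none of the 10 had an adjusted p under 0.05 (limma). Markers of other cells differed among arrays of 1 group. The granulocyte list (15 of 15 genes on the array) averaged log2 9.14, 6.64 and 7.05 in KO replicates 1, 2 and 3, and 6.77, 8.88 and 9.06 in WT replicates 1, 2 and 3. The mast cell and basophil list (12 of 12) averaged 6.35, 6.23 and 6.41 in the KO and 6.05, 8.18 and 8.31 in the WT. The log2 of the summed intensity ran from 11.03 to 14.88 in the KO and from 11.26 to 15.85 in the WT for the granulocyte list, and from 12.65 to 12.69 in the KO and from 12.54 to 14.41 in the WT for the mast cell list. The erythroid list (9 of 11 on the array) averaged 7.05, 6.88 and 7.0 in the KO and 6.90, 7.96 and 7.98 in the WT. Chosen after its values were seen, the erythroid marker Car1 lay at 5.98, 5.32 and 5.94 in the KO and at 5.21, 10.26 and 10.40 in the WT. Klf1 and Aqp1 of that list, and Nkg7 of the lymphocyte list, were likewise highest in WT replicates 2 and 3. Other erythroid markers did not follow them. Epor and Tfrc were highest in KO replicate 1, with Epor lowest in WT replicate 3, and Alas2, near background, was highest in KO replicate 2. WT replicates 2 and 3 thus stood apart from WT replicate 1, and the ER genes with the largest differences are given with and without them. In bulk RNA a change in the number of cells of a type and a change in RNA per cell cannot be told apart. Of the other markers on the array, no array detected 9 of 12 lymphocyte and plasma cell genes, 8 of 11 stromal and endothelial genes, 3 of 9 erythroid genes or 3 of 6 monocyte and macrophage genes. Nor did any detect 3 of 15 granulocyte genes or 5 of 12 mast cell and basophil genes, so these list means include background probes. The 5 were Mcpt4, Tpsb2, Tpsab1, Cma1 and Il4, whereas Mcpt8 and Prss34 of that list were highest in WT replicates 2 and 3.

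None of the 22 tested ER genes passed the test between KO and WT (limma, adjusted p from 0.32 to 0.99), where 0.160% of all 9403 tested probes did (0.0213% higher and 0.138% lower). At an unadjusted p under 0.05 there were 3 of the 22 (13.6%), Hsp90b1, Pdia6 and Trib3, against 12.8% of the 6864 genes tested by their brightest probe. Hsp90b1 and Pdia6 were the 2 higher (6.59% of all tested genes) and Trib3 the 1 lower (6.25%). Of the 22 genes, 14 (63.6%) were higher by mean in the KO and 8 lower, beside 49.0% higher over all tested genes. The median difference of the 22 was +0.11 on the log2 scale, beside -0.0072 over all tested genes. The arrays of the groups did not overlap for 6 of the 22 genes, beside 18.1% of all tested genes (8.68% with the KO above and 9.46% with it below). Hsp90b1, Pdia6, Derl2 and Edem1 had every KO array above every WT array, and Trib3 and Asns every KO array below. The share at an unadjusted p under 0.05 lay near the background. Sesn2 entered the test through the KO arrays alone, with detection on 3 KO arrays and 1 WT array, so these counts describe the genes tested and not the whole list.

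**Figure D1:**
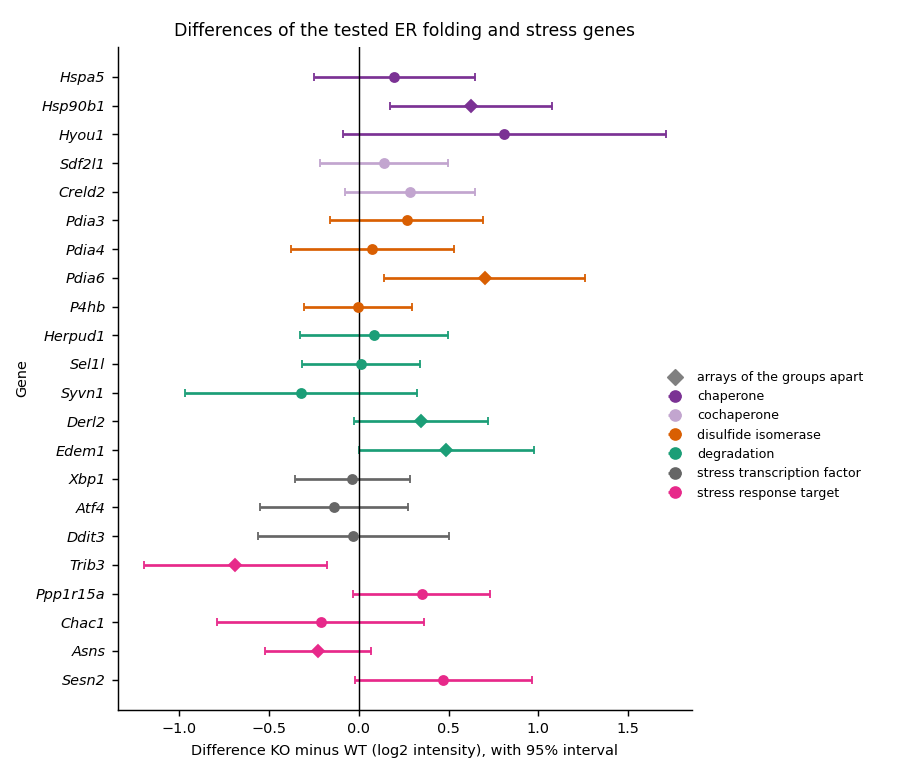
Difference of KO minus WT in log2 intensity for the 22 tested genes, coloured by role, with 95% intervals from limma. Diamonds mark the 6 genes whose KO and WT arrays did not overlap; the differences ran from -0.69 for Trib3 to +0.81 for Hyou1, and none passed after adjustment.

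The chaperones were all higher by mean in the KO, and none passed. Hsp90b1, the ER member of the HSP90 family, lay at log2 14.24, 13.94 and 13.98 in KO replicates 1 to 3, against 13.80, 13.29 and 13.20 in WT replicates 1 to 3. Every KO array lay above every WT array, and WT replicate 1 was nearest to the KO. The difference was +0.63 (SE 0.19, 95% interval 0.18 to 1.07, limma adjusted p = 0.32), or 1.54-fold. Hyou1, a large chaperone that helps Hspa5 exchange nucleotide, stood at 8.69, 8.76 and 9.08 in the KO and at 8.90, 8.02 and 7.18 in the WT. WT replicate 1 lay within the KO range and WT replicate 3 was the lowest of the 6 arrays. The difference of +0.81 (SE 0.39, adjusted p = 0.39) was the largest of the 22 with all arrays, with an SD of 0.21 in the KO and 0.86 in the WT (n = 3 each). Without WT replicate 3 it was +0.39, below the sizes for Trib3, Edem1, Hsp90b1 and Pdia6 in the same fit. Hspa5, the central ER chaperone, was at 10.52, 10.34 and 10.94 in the KO and 10.55, 10.47 and 10.19 in the WT. These ranges overlapped, and the difference of +0.20 had a 95% interval of -0.25 to 0.64. Without KO replicate 3 it was +0.030, and without KO replicate 2 it was +0.33.

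The 4 disulfide isomerases ranged in difference from -0.0049 for P4hb to +0.70 for Pdia6, and none passed. Pdia6, which also binds the sensor IRE1, lay at 8.80, 8.68 and 8.64 in the KO, against 8.41, 8.14 and 7.46 in the WT. The KO arrays were close together (SD 0.086) and above the WT arrays, which spread further (SD 0.49). Its difference was +0.70 (SE 0.24, 95% interval 0.14 to 1.26, limma adjusted p = 0.33), or 1.63-fold, and without WT replicate 3 it was +0.43. P4hb, the founding member of the family, averaged 13.59 ± 0.077 in the KO and 13.60 ± 0.074 in the WT (SD, n = 3 each). Its interval of -0.31 to 0.30 was the tightest of the isomerases. Pdia3, the partner of calnexin and calreticulin, lay at +0.27 (SE 0.18), with KO replicate 1 at 13.29 within the WT range of 13.18 to 13.53. Pdia4 lay at +0.075 (SE 0.20), and its highest array was KO replicate 1 at 10.91.

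Among the cochaperones, Creld2 and Sdf2l1 were tested. Creld2, an ER protein induced by stress, stood at 11.74, 11.97 and 11.92 in the KO and 11.82, 11.45 and 11.50 in the WT, a difference of +0.29 (SE 0.16, limma adjusted p = 0.43). WT replicate 1 again lay within the KO range. Sdf2l1, which works with Hspa5 and its J-domain partners, differed by +0.14 (SE 0.15), and its KO range of 10.08 to 10.39 held 2 of the 3 WT arrays. The Dnajc3 probe was not well above background on any array, and the Manf probe was detected on WT replicate 2 alone (log2 6.17). The probes for calreticulin (Calr, log2 5.19 to 5.33) and calnexin (Canx, 4.94 to 5.36) were likewise not well above background on any array, so neither lectin chaperone could be compared.

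**Figure D2:**
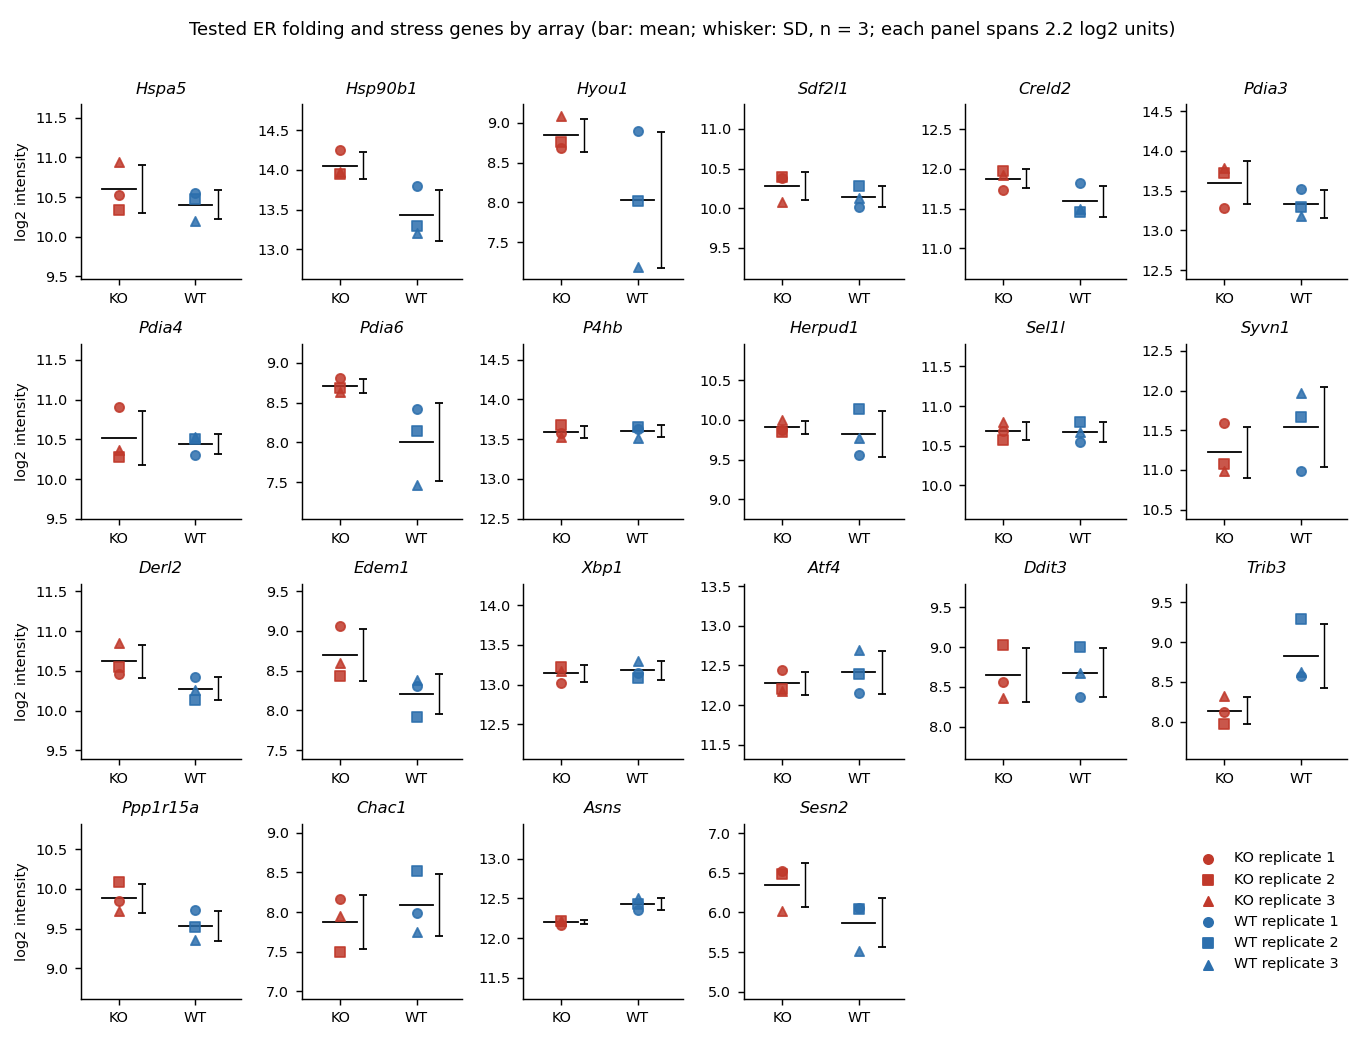
Log2 intensity of each tested gene by array, KO left and WT right, with the mean as a bar and the SD (n = 3) as a whisker; marker shapes give the replicate number, and each panel spans a log2 range of the same width. WT replicate 3 was the lowest array for Hsp90b1, Hyou1 and Pdia6, and WT replicate 1 was the WT array nearest to the KO for each of them.

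Over the 9 tested chaperones, cochaperones and disulfide isomerases, WT replicate 3 was the lowest array for 6 genes. KO replicates 1, 2 and 3 were each the highest array for 3 genes, and no WT array was the highest for any. Pdia4, Sdf2l1 and Creld2 had other lowest arrays. Over all tested genes, WT replicate 3 was the lowest array for 24.9% and the highest for 23.3%, the largest share of both. KO replicate 1 was the highest array for 20.5% of them, and WT replicate 2 had the smallest share, at 12.8%. Over all 22 tested ER genes, KO replicates 1 to 3 were the highest array for 5, 5 and 4 genes. WT replicates 1 to 3 were the highest for 0, 4 and 4, so the count without a WT array holds for the 9 genes alone. The median deviation of the 9 genes from their own means was +0.16, +0.20 and +0.24 in KO replicates 1 to 3, against +0.053, -0.17 and -0.29 in WT replicates 1 to 3. The arrays with the low values, WT replicates 2 and 3, were also those with the high mast cell and basophil markers (Cpa3 at 12.64 and 12.88, against 6.62 in WT replicate 1). The erythroid markers Car1, Klf1 and Aqp1 were high on the same 2 arrays. Epor of that list was not, at 8.23 and 7.98 there against 8.52 in WT replicate 1, and Tfrc was highest in KO replicate 1. KO replicate 1 also had high granulocyte markers, and it had the highest Hsp90b1 and Pdia6 of all arrays. The granulocyte list did not move as one: Mpo lay at 13.07 in KO replicate 1, below 14.74 and 14.93 in WT replicates 2 and 3. S100a8, chosen after its values were seen, lay at 13.23 in KO replicate 1, above 10.87 and 11.20 in WT replicates 2 and 3, and S100a9, Ngp, Camp, Ltf and Lcn2 were also highest in KO replicate 1. The part that these other cells play in the folding genes was not tested.

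**Figure D3:**
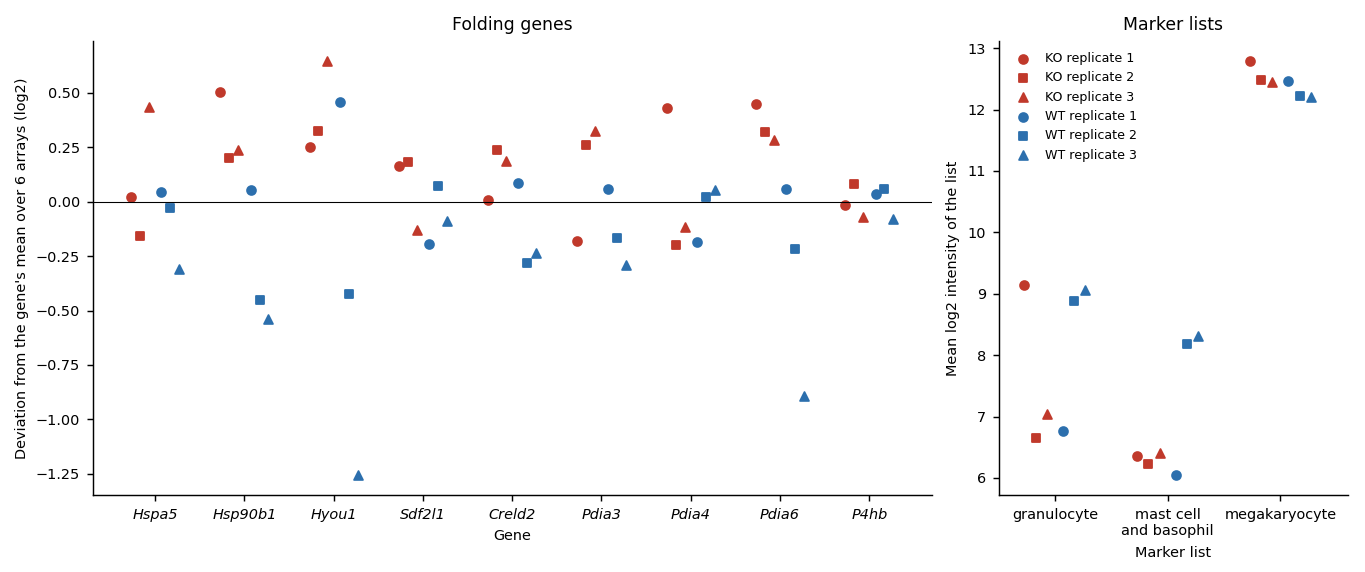
Left, deviation of each of the 9 tested folding genes from its mean over the 6 arrays in log2 units; right, mean log2 intensity of 3 marker lists, with KO points left of WT points in both. WT replicates 2 and 3 were low for Hsp90b1, Hyou1 and Pdia6 and high for the mast cell and basophil markers.

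Leaving out WT arrays moved these values. Without WT replicate 1, Hsp90b1 differed by +0.81 (limma adjusted p = 0.033) and Hyou1 by +1.24 (adjusted p = 0.039), so that 2 of the 22 passed, where 6.82% of all tested genes did (639 probes in all). Pdia6 then lay at +0.91 (adjusted p = 0.053) and Trib3 at -0.82 (adjusted p = 0.075). With WT replicates 2 and 3 left out together, a choice made after seeing the data, 0 of 22 passed, beside 0.131% of tested genes. The differences were then +0.26 for Hsp90b1, -0.053 for Hyou1 and +0.29 for Pdia6. That fit sets 3 KO arrays against 1 WT array, which is assumed to vary as the KO arrays do. With KO replicate 1 also left out, beside 0.189% of tested genes passing, none of the 22 passed, and Hsp90b1 stood at +0.16.

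**Figure D4:**
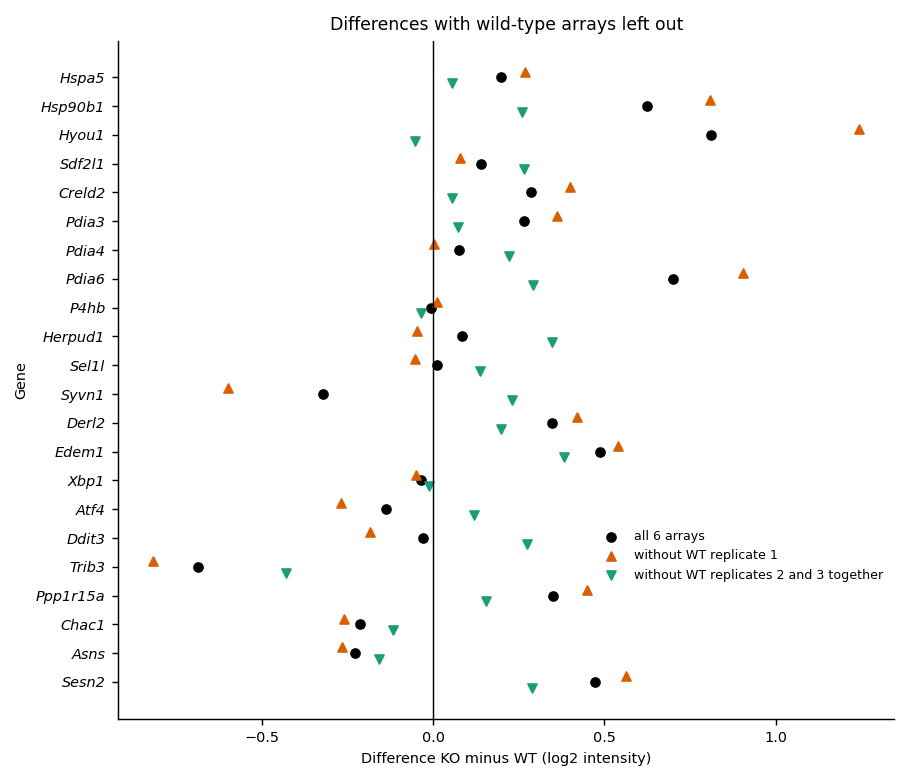
Difference of KO minus WT in log2 intensity for each tested gene with all 6 arrays, without WT replicate 1, and without WT replicates 2 and 3. Hyou1 lay at +0.81 with all arrays, at +1.24 without WT replicate 1 and at -0.053 without WT replicates 2 and 3.

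Of the 6 genes of ER degradation, which pull misfolded proteins back to the cytosol, 5 were tested and none passed. Edem1, a lectin that marks misfolded glycoproteins for disposal, lay at 9.06, 8.43 and 8.60 in the KO and at 8.31, 7.92 and 8.39 in the WT. The groups were apart by a narrow margin, and the difference was +0.49 (SE 0.21, limma adjusted p = 0.36). Without KO replicate 1, its highest array, it was +0.31. Derl2, a membrane protein of the export channel, stood at 10.46, 10.55 and 10.85 in the KO, against 10.42, 10.13 and 10.26 in the WT, a difference of +0.35 (SE 0.16, adjusted p = 0.38). Its second tested probe did not show this: it lay at -0.14 (SE 0.16), with KO arrays at 9.27 to 9.69 and WT arrays at 9.47 to 9.76. Herpud1, which carries the ERSE-II and CARE letters, differed by +0.084 (SE 0.18), and its 3 KO arrays, with a mean of 9.91 ± 0.083 (SD, n = 3), all lay inside the WT range of 9.56 to 10.14. Sel1l, the adaptor of the ubiquitin ligase complex, differed by +0.011 (SE 0.14) and was -0.036 when arrays were scaled to the 75th percentile.

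Syvn1, the ubiquitin ligase (HRD1) that works with Sel1l, ran the other way by mean. It lay at 11.59, 11.07 and 10.99 in the KO and at 10.99, 11.66 and 11.97 in the WT, a difference of -0.32 (SE 0.28, limma adjusted p = 0.60). Its low arrays were WT replicate 1 and KO replicates 2 and 3, and its high arrays KO replicate 1 and WT replicates 2 and 3, which were also the 3 arrays with the highest mean of the granulocyte list. Without WT replicates 2 and 3 the difference was +0.23. Without WT replicate 3 alone it was -0.11. The part of granulocytes in this was not tested. The brighter Derl1 probe was not well above background on any array, and a second was detected on WT replicate 3 alone.

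Among the stress transcription factors, Xbp1, Atf4 and Ddit3 were tested, and their differences lay between -0.14 and -0.030. Xbp1 was at log2 13.03, 13.23 and 13.17 in the KO and 13.15, 13.08 and 13.30 in the WT. The arrays of the groups were interleaved, and the 95% interval of the difference ran from -0.36 to 0.28. The probe reads the Xbp1 transcript level; splicing by IRE1 was not measured. Atf4, whose output is governed largely by translation, averaged 12.27 ± 0.14 in the KO and 12.41 ± 0.27 in the WT (SD, n = 3 each), and its second probe differed by +0.042 (SE 0.16). Ddit3, a pro-apoptotic factor downstream of Atf4, stood at 8.56, 9.03 and 8.36 in the KO and 8.37, 9.0 and 8.67 in the WT. Its highest array belonged to the KO and its lowest also, and the interval was -0.56 to 0.50.

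The sensors could not be compared between the groups. The Atf6 probe was not well above background on any array (log2 5.18 to 5.64). The Ern1 probe was detected on no KO array (5.66, 5.59 and 5.73) and on 2 of the 3 WT arrays (5.99, 6.17 and 6.19), which left it outside the test. All of its KO arrays lay below its WT arrays at these dim levels.

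Of the 5 targets of the Atf4 arm and related stress genes, 2 were higher by mean in the KO and 3 lower, and none passed. Trib3, a pseudokinase that ATF4 and CHOP induce, lay at 8.13, 7.97 and 8.32 in the KO, against 8.57, 9.29 and 8.62 in the WT. Every KO array was below every WT array, and WT replicate 2 was the highest. The difference was -0.69 (SE 0.22, 95% interval -1.20 to -0.18, limma adjusted p = 0.32), or 1.61-fold lower. With WT replicates 2 and 3 left out it was -0.43, and with WT replicate 2 alone left out -0.46. The 2 other Trib3 probes were detected on WT replicate 2 alone and give no second reading.

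Asns, asparagine synthetase, was also apart between the groups on its brighter probe, at 12.17, 12.22 and 12.21 in the KO and 12.36, 12.43 and 12.51 in the WT. The difference was small, at -0.23 (SE 0.13, limma adjusted p = 0.43). A second Asns probe lay at +0.14 (SE 0.16), with KO arrays at 9.12, 9.25 and 9.46 and WT arrays at 9.18, 8.94 and 9.30, so the probes differed in direction. Chac1, which breaks down glutathione, stood at 8.17, 7.50 and 7.95 in the KO and 7.99, 8.52 and 7.75 in the WT, with a difference of -0.21 (SE 0.25). The ranges overlapped over most of their length.

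Ppp1r15a (GADD34), which lets translation resume by helping to remove the phosphate from eIF2 alpha, lay at 9.85, 10.08 and 9.72 in the KO and at 9.73, 9.52 and 9.35 in the WT. One KO array fell just below the highest WT array, and the difference was +0.35 (SE 0.16, limma adjusted p = 0.39). Sesn2, a sestrin that restrains mTORC1, was near background, at 6.52, 6.49 and 6.02 in the KO and 6.05, 6.05 and 5.51 in the WT. It differed by +0.47 (SE 0.21, adjusted p = 0.38), with detection on all KO arrays and 1 WT array. The pro-apoptotic factor, the pseudokinase and the phosphatase subunit of this arm, Ddit3, Trib3 and Ppp1r15a, had no common direction by mean.

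Of the 8 members that hold the ERSE letters, 5 were tested. Hyou1, which was tested on the arrays, had no promoter window, so whether it holds the letters is unknown here. With all arrays, Hspa5, Hsp90b1, Pdia6 and Creld2 were higher in the KO, at +0.20, +0.63, +0.70 and +0.29, and Syvn1 was lower, at -0.32. Without WT replicates 2 and 3, a fit on 1 WT array chosen after seeing the data, all 5 were higher by mean. Hspa5 was at +0.056, Hsp90b1 at +0.26, Pdia6 at +0.29, Creld2 at +0.057 and Syvn1 at +0.23. Most other tested members were also higher in that fit, and the lower ones were Hyou1, P4hb, Xbp1, Trib3, Chac1 and Asns. None passed in either fit. Asns and Chac1, with the CARE letters, were lower at -0.23 and -0.21, and Herpud1, with ERSE-II and CARE letters, lay at +0.084.

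Further genes of the same compartment and pathway, in 5 lists of 95 genes with 86 on the array and 65 tested, gave no call in either direction (limma, lowest adjusted p 0.33). Their median difference was 0.0003, with 33 higher and 32 lower, and 3 of the 65 (4.62%) had an unadjusted p under 0.05, beside 12.8% of all tested genes. In the list of other folding genes, 15 of 21 were tested, 5 higher and 10 lower. Txndc12, a thioredoxin-like ER protein, lay at -0.60 (SE 0.21), Erp29, an ER protein of thioredoxin fold, at -0.47 (SE 0.17), and Fkbp11, a prolyl isomerase, at -0.29 (SE 0.15). Txndc12 stood at 8.33, 8.02 and 8.24 in the KO, against 8.41, 8.82 and 9.14 in the WT. Its groups were apart, with the KO below, whereas Pdia6, an isomerase from the same structural family, had the KO above.

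The other degradation genes gave 8 higher and 4 lower of 12 tested. Edem2, a mannosidase-related protein, lay at -0.49 (SE 0.24), Erlec1, an ER lectin, at +0.42 (SE 0.21), and Nploc4, a cofactor of the segregase VCP, at +0.36 (SE 0.19). Edem2 was high in WT replicates 2 and 3 (11.97 and 12.08), against 11.15 to 11.36 in the KO and 11.20 in WT replicate 1. Without WT replicate 1, Edem2 at -0.77 (limma adjusted p = 0.031) and Txndc12 at -0.78 (adjusted p = 0.044) passed, and no other of the 65 did. Without WT replicates 2 and 3, Edem2 lay at +0.060 and Txndc12 at -0.22, and neither passed. Among other stress regulators 9 were tested, 5 higher and 4 lower. The smallest p there belonged to Mbtps1, the protease that cleaves ATF6, at +0.36 (SE 0.17), followed by Atf6b, a relative of Atf6, at -0.35 (SE 0.19), and Eif2ak2, the kinase PKR, at +0.22 (SE 0.13).

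The amino acid response genes, most of them known ATF4 targets, split 7 higher and 8 lower of 15 tested. Tars, a threonyl-tRNA synthetase, lay at -0.30 (SE 0.15), Shmt2, an enzyme of mitochondrial serine and glycine metabolism, at +0.23 (SE 0.15), and Sars, a seryl-tRNA synthetase, at +0.26 (SE 0.19). Their median was -0.016. The genes of protein entry, which carry new chains into the ER, gave 8 higher and 6 lower of 14 tested. Sec61b, a subunit of the translocation channel, lay at -0.37 (SE 0.15), Sec11c, a catalytic subunit of the signal peptidase, at +0.40 (SE 0.19), and Srpr, a receptor for the signal recognition particle, at +0.38 (SE 0.19).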

How the data were processed

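RNA of 6 samples, 3 per group, was read on 6 Illumina bead arrays. The deposited raw table held an intensity for each probe and array, linear and positive throughout, together with a detection p-value, per the file headers. The authors' processed values, on a log2 scale from 7.80 to 15.6, had the same sorted values in every array, as quantile normalization gives; the exact transform is not given in the sources used here. The submitters' processing notes list BeadStudio 3.2 and lumi and do not say what each did.

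Intensities were normalized with neqc (limma 3.58.1 in R 4.3.3), which estimates background from the detection p-values, adds an offset of 16, equalizes the distributions of the arrays and takes log2; the offset shrinks differences of dim probes. KO and WT were compared by limma's moderated two-sided test over 9403 of 24611 probes, adjusted by Benjamini-Hochberg over all 9403, and adjusted p-values below 0.05 passed. The fit was tested on simulated data with known differences. Levels of different probes were not set against each other.

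The platform annotation gave 1 symbol for 20983 probes, several for 1 and none for 3627, and 20967 were matched by Entrez number to RefSeq genes (GRCm38.p6). No pair of arrays shared more than 1 identical raw value. No slide or scan was named, so neither was examined as a batch. The number of arrays limits the precision.

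Named were all members with a probe, Srf, the 3 tested genes of smallest p in each further pathway list, any that passed, and most of a few fixed markers. The other markers named were picked after their values were seen. The members and lists were chosen with earlier results of these data known. Alternatives covered background correction, scaling, the authors' values, the filter, the probe rule, a replicate block and arrays left out.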

Additional observations from a re-analysis of the deposited data

How the results depend on the processing

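The count of probes that changed was 15, or 9 with no filter, 9 with detection p under 0.01 on all 6 arrays, 6 with the replicate number as a block, and 7 to 639 with 1 array left out; 639 was without WT replicate 1, 8 without KO replicate 1, and 7 without WT replicate 2, KO replicate 2 or KO replicate 3. No ER member passed under any alternative other than the fit without WT replicate 1, in which 2 did, so the range with 1 array left out was 0 to 2, and it was 0 to 2 also for the further pathway genes. Same-numbered arrays did not deviate together (correlations -0.27, -0.13 and -0.089 over tested probes), and no array correlated best with its own number. KO replicate 1 correlated at 0.22 and 0.19 with WT replicates 2 and 3, which shared its high granulocyte means. Whether same-numbered samples were prepared together cannot be told from these correlations, since differences in cell markers also enter them. The replicate block changed no member's call. The members' median difference kept its sign throughout, from 0.011 with no filter to 0.21 without WT replicate 2. Small differences changed sign with 1 array left out, over -0.047 to 0.030 for P4hb, -0.12 to 0.19 for Pdia4, -0.047 to 0.24 for Herpud1, -0.052 to 0.074 for Sel1l, -0.086 to 0.026 for Xbp1, -0.27 to 0.0022 for Atf4, -0.22 to 0.13 for Ddit3 and -0.38 to 0.0023 for Chac1. With 1 array left out, the differences ran from 0.030 to 0.33 for Hspa5, 0.39 to 1.24 for Hyou1, 0.43 to 0.91 for Pdia6, 0.31 to 0.62 for Edem1, 0.17 to 0.42 for Pdia3, 0.079 to 0.24 for Sdf2l1, 0.29 to 0.63 for Sesn2, -0.60 to -0.11 for Syvn1 and -0.82 to -0.46 for Trib3. Sel1l was -0.036 with scaling to the 75th percentile. Leaving out WT replicates 2 and 3 together turned Hyou1 (-0.053), Syvn1 (0.23), Atf4 (0.12) and Ddit3 (0.28), and with KO replicate 1 left out too Syvn1 was 0.043, Xbp1 0.046, Atf4 0.036 and Ddit3 0.32. The causes of these changes were not tested. Hsp90b1, Pdia6, Edem1, Derl2, Trib3 and Asns kept their direction under all 16 alternatives, with Derl2 and Asns averaged over their probes included. Much of this was fixed in advance. The KO and WT arrays of these genes did not overlap, so leaving arrays out could not turn them. The filter settings and the replicate block do not alter the difference itself. Hspa5, Pdia3, Sdf2l1, Creld2 and Ppp1r15a, whose KO and WT arrays overlapped, also kept their direction under all 16. So did Sesn2 under the 15 in which it was tested. Probes not well above background, among them those for calreticulin, calnexin, Atf6 and Ern1, limit what can be said of the lectin chaperones and the sensors.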
